A study of Mus musculus with 6 samples.

Results

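The genes described here form the atrophy and growth axis of skeletal muscle: the ubiquitin ligases Fbxo32 (atrogin-1) and Trim63 (MuRF1), the transcription factors Foxo1, Foxo3 and Klf15, the secreted growth inhibitor Mstn (myostatin) with its receptor Acvr2b and its binding protein Fst (follistatin), and the growth factor Igf1 with its receptor Igf1r. They were followed in integrin alpha7 transgenic mice and in wild type mice. All probe sets whose annotation names exactly 1 of these genes were taken, which gave 26 of the 45037 probe sets that were not controls. They cover 9 of the 10 genes, of 18193 genes that the array names in this way. Mstn was not analysed here, as no probe set carries its symbol alone, and 1 probe set that names Foxo3 beside another gene was not used. A filter on dim signal, set at a signal of about 21.7 on the average of the arrays, kept 23 of the 26 probe sets. The genes were chosen by results of these same arrays, in which a probe set of Fbxo32 stood out as lower in transgenic muscle, at an adjusted p of 0.0281 in limma. The differences between genotypes below are therefore a description of these genes. Adjusted p-values of Fbxo32 are given only to show what the choice rested on and how it moved between settings, and nothing is supported with them.

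The muscle was the gastrocnemius with the soleus, taken from non-fasted female mice at 5 weeks of age in a basal state. The transgenic mice overexpress integrin alpha7, a laminin receptor chain of the fibre membrane, and the controls were wild type, both on a background labelled SJ6/C57BL6. Each genotype had 3 Affymetrix Mouse430_2 arrays, each hybridised with RNA combined from 6 animals, 18 animals a genotype. The labels state neither the promoter of the transgene nor the number of founder lines, and they do not explain the word intronic in the titles of the controls. The check of the labels held, with Itga7 at 2238 ± 228 in transgenic and 292 ± 32.7 in wild type muscle (SD, n = 3 each). The labelled tissue showed its markers: the actin Acta1 gave signals of 18727 to 21386 in transgenic and 20187 to 23511 in wild type arrays, and the slow myosin Myh7, typical of soleus, gave 4560.4 to 7010.0 and 4655 to 5893. Correlation between arrays over the kept probe sets lay between 0.971 and 0.981. The run files showed 2 rounds of hybridisation. Round 1 held arrays 1 and 2 of both genotypes, and round 2 held array 3 of both. Fluidics modules 1 and 3 held wild type arrays alone and modules 2 and 4 transgenic arrays alone. Differences between genotypes thus cannot be told apart from differences between modules.

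Muscle mass follows the balance of synthesis and breakdown of fibre proteins. Insulin-like growth factor 1 acts through its receptor, phosphoinositide 3-kinase and Akt, and Akt keeps FoxO factors out of the nucleus. In the nucleus, FoxO factors switch on Fbxo32 and Trim63, which mark muscle proteins for the proteasome. Myostatin, through activin receptor IIB and Smad proteins, restrains growth, and follistatin binds myostatin and holds it off the receptor. Glucocorticoids raise the same ligases in muscle and induce Klf15, which in turn activates the branched-chain aminotransferase gene Bcat2.

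Promoter windows of 250 bases before to 50 after an annotated start were found for 8 of the 10 genes in RefSeq's GRCm38.p6 annotation, with 1 window a gene. For Igf1, Acvr2b and Klf15 that start lies inside the span of the gene given below and not at its first base. They were searched on both strands for GTAAACA, a FoxO motif, and for AGAACA, the core hexamer of the glucocorticoid response element. Trim63 was the single gene of the 8 with a match to the FoxO motif and also the single gene with a match to the hexamer, so its window is shown. Fbxo32 and Fst had no window and were not searched. Of all 32851 windows, 3.65% hold the FoxO motif and 19.0% the hexamer. In the Trim63 window, at chr4:134314870-134315169 on the plus strand, both matches lie on the strand opposite to the gene. Capitals mark the hexamer, at bases -200 to -195 from the start, and the FoxO motif that follows it directly, at -194 to -188.
Trim63: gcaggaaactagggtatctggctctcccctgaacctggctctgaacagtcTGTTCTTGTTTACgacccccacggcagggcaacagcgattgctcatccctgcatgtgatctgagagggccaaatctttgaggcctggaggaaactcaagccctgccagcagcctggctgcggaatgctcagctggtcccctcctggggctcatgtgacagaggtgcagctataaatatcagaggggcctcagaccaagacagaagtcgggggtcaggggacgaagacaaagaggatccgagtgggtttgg
The myogenic E-box CAGCTG was matched at -72 to -67 of the same window, and in the window of Igf1 as well. It is present in 16.3% of all windows. The letters CAGACA, part of a Smad site, were matched in the window of Mstn (21.0% of all windows), and CACCC, a Klf core, in those of Acvr2b and Klf15 (57.5% of all windows). No match shared a base with a match to another of these motifs. These matches describe letters and are no evidence of binding.

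Fbxo32 was lower in transgenic muscle on every probe set, and on none of the 3 did a transgenic array reach the lowest wild type array. Fbxo32, at chr15:58175879-58214892 in GRCm38.p6, encodes the F-box protein that brings substrates to a cullin ligase. Probe set 1417522_at gave 213, 203 and 200.3 in the transgenic arrays, against 324, 334 and 343 in the wild type arrays. All 3 transgenic values lay close together and well under the lowest wild type value. The fold was 0.633, a log2 difference of -0.66 with an SE of 0.10 on the log2(signal + 16) scale on which every fold here is given, and this was the probe set whose adjusted p of 0.0281 led to the choice of these genes. Its log2 difference was the 270th lowest of 27022.

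The brightest probe set of Fbxo32, 1448747_at, gave 530.5, 584 and 385 in the transgenic arrays, against 704, 762 and 812 in the wild type arrays. Transgenic array 3 was far below the other transgenic arrays, and the highest transgenic value was still under the lowest wild type value. The fold was 0.657, with a log2 difference of -0.61 and an SE of 0.13. The third probe set, 1435265_at, gave 569, 528 and 559 in the transgenic arrays, against 603, 674 and 609 in the wild type arrays. Here the gap between the genotypes was narrow, and the fold was 0.882, with a log2 difference of -0.18 and an SE of 0.08. The annotation ties 1417522_at and 1448747_at to the same source sequence and 1435265_at to another one.

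The probe sets of Fbxo32 thus differed in how far apart the genotypes lay. Within each array, the log2 value of 1417522_at minus that of 1435265_at was -1.36 ± 0.05 in transgenic and -0.88 ± 0.09 in wild type muscle (SD, n = 3 each), with no overlap of arrays. For 1417522_at minus 1448747_at it was -1.20 ± 0.29 in transgenic and -1.15 ± 0.06 in wild type muscle, and the arrays overlapped. In round 1 alone the log2 differences of 1417522_at, 1448747_at and 1435265_at were -0.62, -0.39 and -0.21, and in round 2, with 1 array a genotype, -0.73, -1.05 and -0.12.

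Trim63, at chr4:134315120-134329629, encodes the RING finger ligase of the sarcomere and was measured by 1 probe set. It gave 2916, 2938 and 2194 in the transgenic arrays, against 3059, 2916 and 2851 in the wild type arrays. Transgenic arrays 1 and 2 lay within the wild type range and transgenic array 3 below it. The fold was 0.905, with a log2 difference of -0.14 and an SE of 0.10. The difference rested on transgenic array 3, since round 1 alone gave -0.03 and round 2 -0.38.

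**Figure D1:**
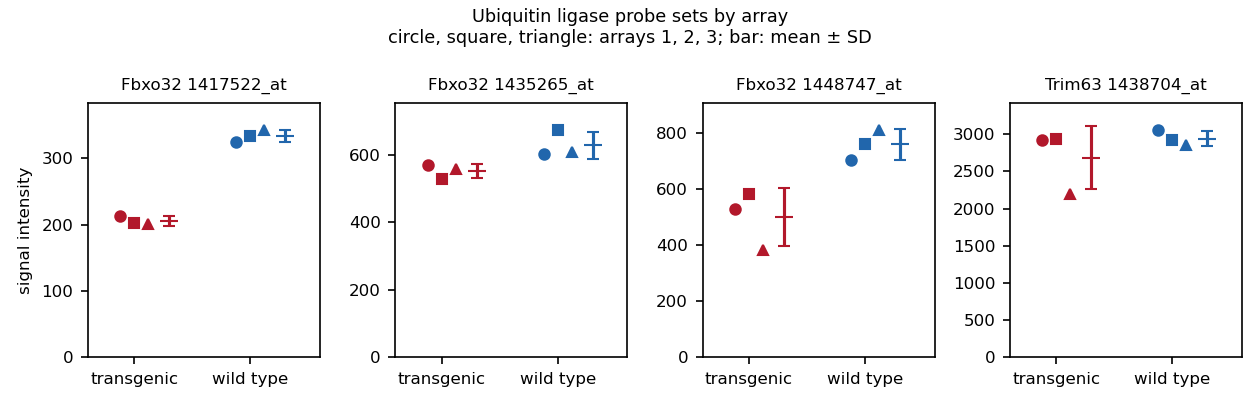
Signal intensity of the 3 Fbxo32 probe sets and the Trim63 probe set, with a point for each array and the mean ± SD of 3 arrays beside it. All transgenic points of each Fbxo32 probe set lie below all wild type points, with means of 205 against 334 for 1417522_at, while the Trim63 points overlap.

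In the fit across the array, 1 of the 23 kept probe sets passed an adjusted p of 0.05 in limma, in the lower direction. Over all 27022 kept probe sets, 0.122% passed in either direction, 0.0999% as higher and 0.0222% as lower. Arrays that did not overlap were found for 5 of the 23 probe sets in the lower direction, 3 of them from Fbxo32, and for 1 in the higher direction. Over the array these shares were 7.5% and 5.85%, and 13.4% in either direction. The median log2 difference was -0.04 over the 23 and -0.01 over all kept probe sets. The call of Fbxo32 1417522_at was lost without each of transgenic arrays 1 and 2 and wild type arrays 1, 2 and 3, at adjusted p of 0.0953, 0.104, 0.103, 0.170 and 0.141, although its log2 difference stayed between -0.64 and -0.68. It was held without transgenic array 3, at an adjusted p of 0.0479.

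**Figure D2:**
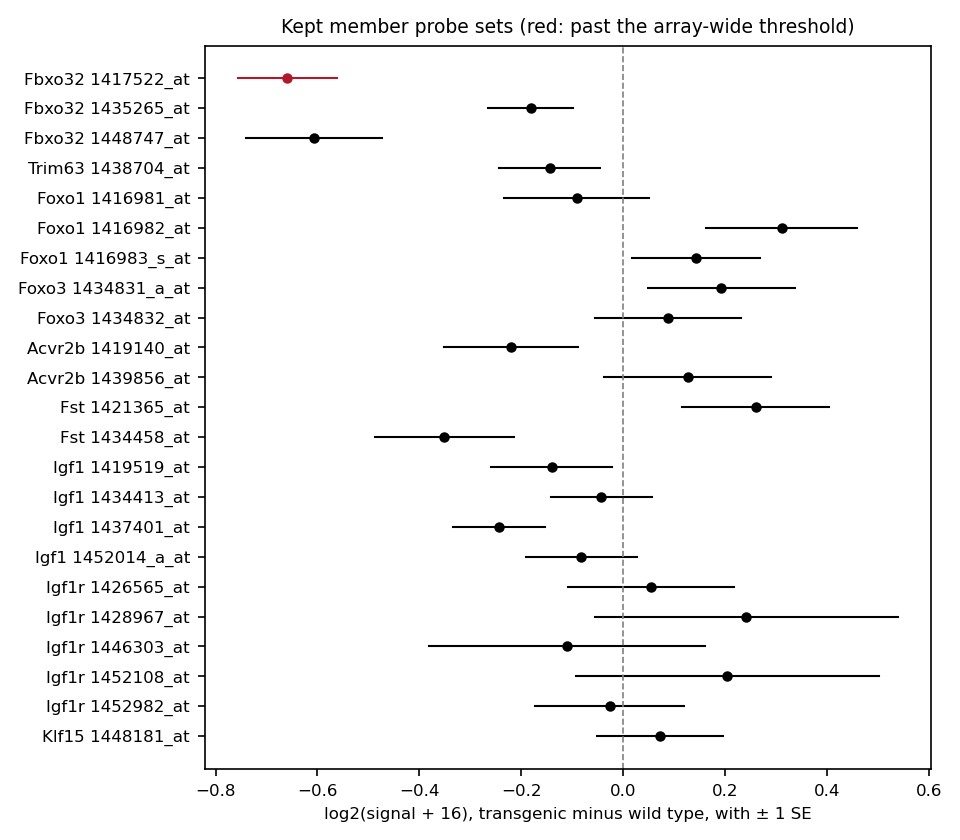
Difference of log2(signal + 16), transgenic minus wild type, for the 23 kept probe sets, with bars of 1 SE on either side from the fit to 3 arrays a genotype. The probe set of Fbxo32 past the array-wide threshold, at -0.66, is red, and the others range from -0.61 to 0.31.

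Markers of muscle fibres and of other cell types are given here beside these results. Muscle fibre markers had a summed signal of 118834 to 127072 in transgenic arrays, against 130888 to 133211 in wild type arrays, with 7 of 9 genes lower and none past the array-wide threshold. The brightest of them lie near the top of the signal range. The highest signal of an array was 21385.5 to 22468.8 in transgenic and 23547.1 to 23952.5 in wild type arrays. Macrophage markers summed to 4506 to 4816 in transgenic and 4859.8 to 5168 in wild type arrays, with 5 of 6 genes lower, and endothelial markers to 881 to 977 and 1035 to 1127, with 4 of 4 lower. Of all 12942 genes, 6602 were lower by their brightest kept probe set, and sums of other gene sets were not taken. The sums overlapped for fibroblast, adipocyte, satellite cell, nerve, lymphocyte and tendon markers, and for Alas2, the sole erythroid marker kept. Hba-a1 and Cd3e lay below the filter. Fewer cells of a type, less RNA per cell and a difference in array scale cannot be told apart in these samples. Whether the marker sums differ by more than the spread between pools was not tested. The part of these marker differences in the values of Fbxo32 and Igf1 was not tested either.

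The FoxO factors overlapped between the genotypes on every probe set, and their kept probe sets had differences of both signs. Foxo1, at chr3:52268337-52350109, was measured by 3 kept probe sets tied to the same source sequence. Probe set 1416981_at gave 324, 376 and 319 in the transgenic arrays, against 456, 350 and 296 in the wild type arrays. Its log2 difference was -0.09, with an SE of 0.14. Probe set 1416982_at gave 284, 295 and 294 in the transgenic arrays, against 303, 212 and 191 in the wild type arrays, a log2 difference of 0.31 with an SE of 0.15. The transgenic arrays were nearly level there, and wild type array 1 exceeded them while the other wild type arrays lay well below. Probe set 1416983_s_at gave 354, 365 and 315 in the transgenic arrays, against 378, 277 and 285 in the wild type arrays, a log2 difference of 0.14 with an SE of 0.13. Wild type array 1 was the highest of all 6 arrays on each of the 3 probe sets.

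The probe sets of Foxo1 also disagreed among themselves between the genotypes. The log2 value of 1416981_at minus that of 1416982_at was 0.21 ± 0.11 in transgenic and 0.61 ± 0.06 in wild type muscle (SD, n = 3 each), without overlap. A further probe set, 1456529_at, gave 6.0 or less on every array and was below the filter.

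Foxo3, at chr10:42181845-42276695, gave 277, 283 and 351 in the transgenic arrays, against 326, 247 and 223 in the wild type arrays on 1434831_a_at. The genotypes overlapped, and the log2 difference was 0.19, with an SE of 0.14. On 1434832_at it gave 166, 200.4 and 150.2 in the transgenic arrays, against 149, 188 and 146 in the wild type arrays. That log2 difference was 0.09, again with an SE of 0.14, and array 2 was the highest of both genotypes. Probe set 1450236_at stayed at 14.9 or less and was below the filter.

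Klf15, at chr6:90461043-90491803, encodes a zinc finger factor that responds to glucocorticoids. It gave 313, 286 and 351 in the transgenic arrays, against 350.3, 289 and 264 in the wild type arrays. The ranges overlapped almost fully, and the log2 difference was 0.07, with an SE of 0.12. Wild type array 1 was again the highest of its genotype.

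The first wild type pool stood apart from the other wild type pools on glucocorticoid-responsive genes, a comparison that does not use the genotypes and was made after the values were seen. Over 17 kept genes of the list of glucocorticoid and Klf15 response genes, wild type array 1 was the highest wild type array for 12, or 70.6%, where over all kept probe sets it was the highest for 33.5%. Its median excess over the mean of wild type arrays 2 and 3 was 0.22 on the log2 scale for the list and 0.00 for all kept probe sets. The genes named next were chosen for this excess. Fkbp5, a co-chaperone of the glucocorticoid receptor, gave 438, 501 and 407 in the transgenic arrays, against 687, 338 and 314 in the wild type arrays. Tsc22d3, which encodes the glucocorticoid-induced leucine zipper protein, gave 2779, 1814 and 1746 in the wild type arrays. Glul, which makes glutamine, gave 4061, 2799 and 2294, and Zbtb16, a zinc finger factor, 795, 482 and 563.

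On the log2 scale the excess of wild type array 1 was 1.04 for Fkbp5, 0.68 for Glul, 0.64 for Tsc22d3 and 0.59 for Zbtb16. For Klf15 it was 0.33, and for the probe sets of Foxo1 it was 0.48, 0.55 and 0.41. Foxo3 gave 0.45 on 1434831_a_at and -0.14 on 1434832_at, and the probe sets of Igf1r ran from -0.38 to 0.36. Over the 23 kept probe sets of the genes described here the median excess was -0.05. The probe sets of Fbxo32 did not share the excess, at -0.06, -0.16 and -0.08, and for Trim63 it was small, at 0.08. The receptor gene itself, Nr3c1, ran the other way, at -0.30. Without wild type array 1, the log2 difference between transgenic and wild type muscle was 0.07, 0.50 and 0.28 for the probe sets of Foxo1 and 0.18 for Klf15, and the median of the list was 0.24, against 0.08 with all arrays. The source of the excess was not tested.

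**Figure D3:**
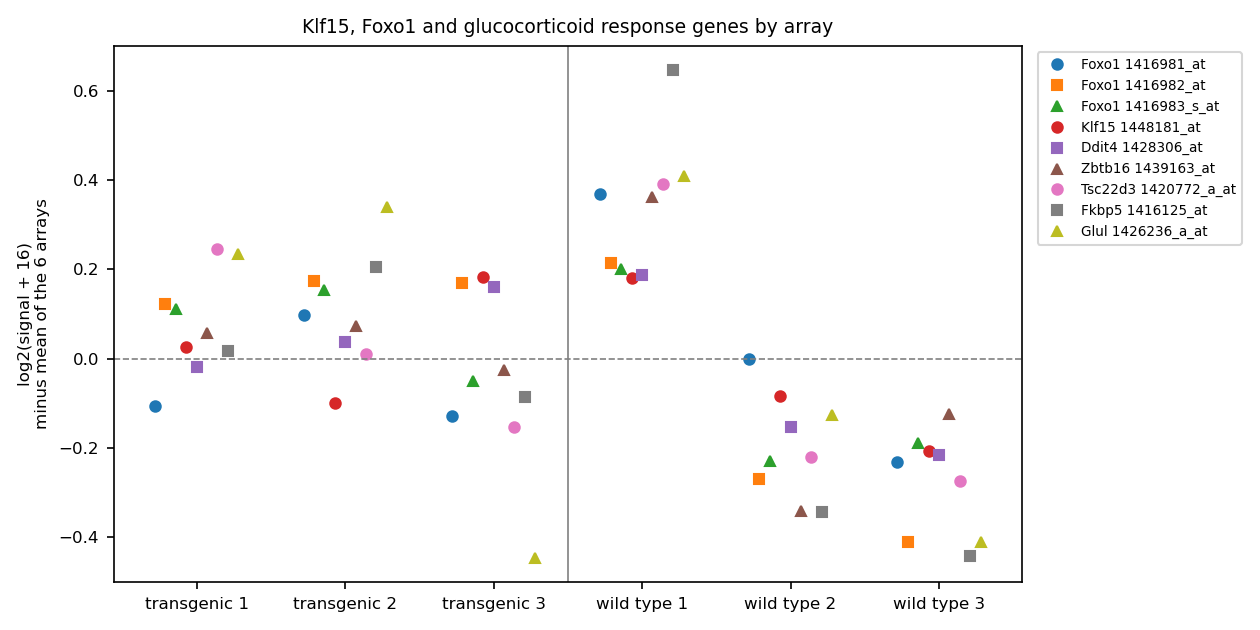
Log2(signal + 16) minus the mean of the 6 arrays for the Foxo1 probe sets, Klf15 and 5 glucocorticoid response genes, by array. All 9 points of wild type array 1 lie above 0, and those of wild type arrays 2 and 3 lie at or below it, with Fkbp5 at the widest distance. The genes were picked after the values were seen, and Foxo3 is not shown.

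Among the genes of glucocorticoid and Klf15 response, 1 of 17 passed the array-wide threshold, in the higher direction, where 0.147% of all genes passed by their brightest probe set. That gene was Bcat2, which starts the breakdown of branched-chain amino acids in mitochondria. It gave 382, 446 and 558 in the transgenic arrays, against 232, 192 and 203 in the wild type arrays, a 2.11-fold rise with an adjusted p of 0.0121 in limma. Every transgenic array exceeded every wild type array. The list was made with earlier results of these data known, so the count and the adjusted p of Bcat2 are descriptions. The call was lost without wild type array 2 or wild type array 3, at adjusted p of 0.0779 and 0.0580 in limma and log2 differences of 1.02 and 1.06. The genes next in order of p were the metallothioneins. Mt2 gave 1273, 896 and 1563 in the transgenic arrays, against 905, 914 and 705 in the wild type arrays, a log2 difference of 0.53 (adjusted p in limma 0.426). For Mt1 the log2 difference was 0.29 and limma's adjusted p 0.539, and for both the arrays of the genotypes overlapped.

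Of the ligands, Igf1, at chr10:87858265-87937047, had 4 kept probe sets, all with a lower mean in transgenic muscle. The differences of 1437401_at and 1419519_at were negative in all 19 alternative settings, while that of 1434413_at was positive in 4, among them equal array medians at 0.03 and round 2 alone at 0.11, and that of 1452014_a_at in 2. Filters, the intensity trend and fixed blocks leave a difference as it is, so these settings could not change a sign. For 1437401_at, left-out arrays and single rounds could not either, as its arrays do not overlap. Probe set 1437401_at gave 800.4, 739 and 658 in the transgenic arrays, against 847, 934 and 826 in the wild type arrays. The genotypes did not overlap there, and the fold was 0.844, with a log2 difference of -0.24 and an SE of 0.09. The brightest one, 1434413_at, gave 920.0, 983 and 1151 in the transgenic arrays, against 939.6, 1140.2 and 1062 in the wild type arrays. Its log2 difference was -0.04, with an SE of 0.10, and the genotypes overlapped. The remaining probe sets, 1419519_at and 1452014_a_at, overlapped as well, with log2 differences of -0.14 and -0.08.

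The receptor genes showed no shared direction. Acvr2b, at chr9:119401583-119442148, encodes the type II receptor of myostatin and activins. Its probe set 1419140_at gave 119, 115 and 137 in the transgenic arrays, against 160.4, 147 and 133 in the wild type arrays, a log2 difference of -0.22 with an SE of 0.13. On 1439856_at it gave 127, 122 and 144 in the transgenic arrays, against 111, 96.8 and 153 in the wild type arrays, a log2 difference of 0.13 with an SE of 0.16. The genotypes overlapped on both, and the dim 1440525_at stayed at 6.5 or less.

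Igf1r, at chr7:67952257-68233668, the tyrosine kinase receptor of Igf1, had 5 kept probe sets with log2 differences of -0.11 to 0.24. The brightest, 1452982_at, gave 224, 213 and 174 in the transgenic arrays, against 214, 243 and 169 in the wild type arrays. Its log2 difference was -0.03, with an SE of 0.15. On 1426565_at the transgenic arrays were level, at 80.2, 80.2 and 80.1, while the wild type arrays ran over 63.6, 77.0 and 91.3. The dim 1428967_at gave 44.1, 28.1 and 36.0 in the transgenic arrays, against 30.3, 46.4 and 12.8 in the wild type arrays, a log2 difference of 0.24. Likewise dim, 1446303_at gave 19.5, 42.1 and 34.6 in the transgenic arrays, against 44.0, 40.3 and 22.8 in the wild type arrays, a log2 difference of -0.11. The dimmest, 1452108_at, gave 27.5, 38.7 and 14.1 in the transgenic arrays, against 14.2, 25 and 21.8 in the wild type arrays, a log2 difference of 0.20. The SEs of these 3 were 0.27 to 0.30 and the genotypes overlapped on all of them.

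Fst, at chr13:114452262-114458989, gave opposite directions on its pair of probe sets. Probe set 1421365_at gave 106, 102 and 101 in the transgenic arrays, against 74.2, 83.1 and 93.8 in the wild type arrays, a log2 difference of 0.26 with an SE of 0.14. Probe set 1434458_at gave 115, 142 and 129 in the transgenic arrays, against 146, 187 and 174 in the wild type arrays, a log2 difference of -0.35 with an SE of 0.14. The transgenic arrays lay above all wild type arrays on the first and below all of them on the second. The log2 value of 1421365_at minus that of 1434458_at was -0.28 ± 0.16 in transgenic and -0.89 ± 0.13 in wild type muscle (SD, n = 3 each), with no overlap. A single direction for Fst can therefore not be given.

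**Figure D4:**
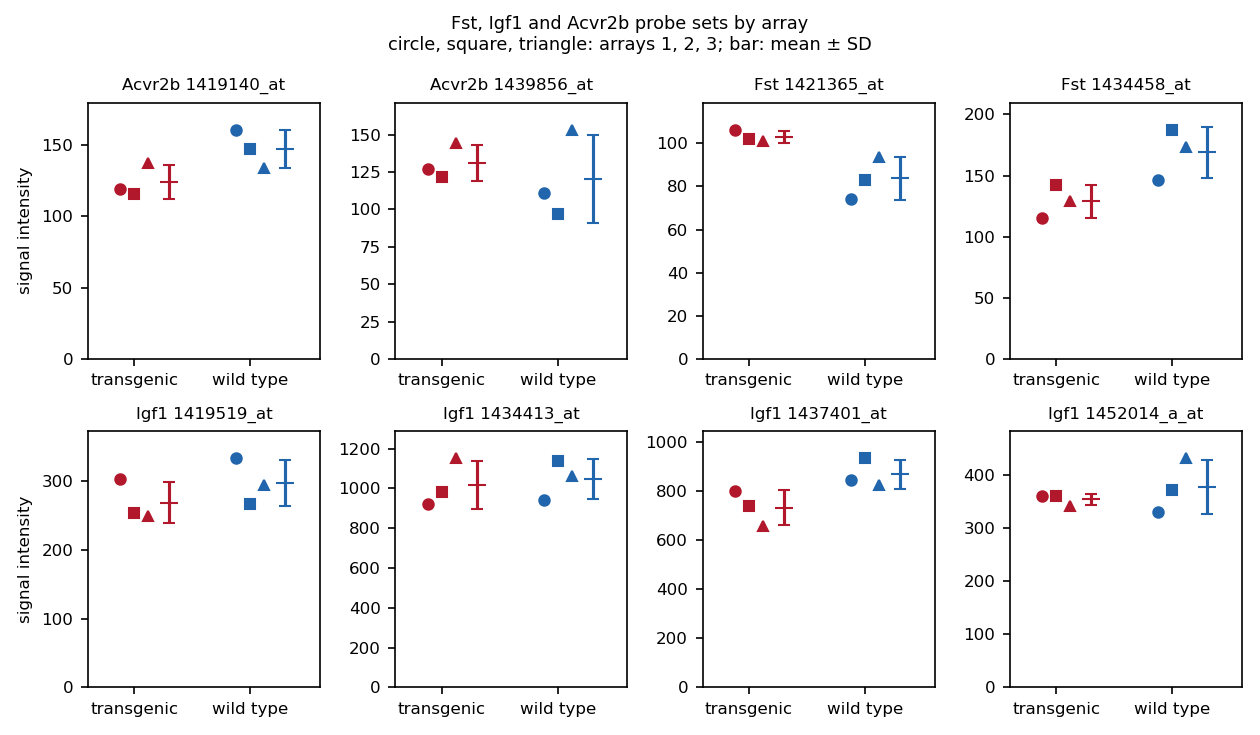
Signal intensity of the kept probe sets of Acvr2b, Fst and Igf1, with a point for each array and the mean ± SD of 3 arrays beside it. The Fst probe sets separate the genotypes in opposite directions, with means of 103 against 83.7 and of 129 against 169, and Igf1 1437401_at is the one Igf1 probe set without overlap.

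The other genes of the pathway were taken as 8 lists, with each gene measured by its brightest kept probe set. Apart from Bcat2, none of the listed genes passed the array-wide threshold, and the median log2 differences of the lists ran from -0.12 to 0.08, where the median of all 12942 genes was 0.00. With array medians made equal, the medians of the ubiquitin ligases, FoxO-responsive genes, Smads and IGF axis changed sign and were 0.03, 0.05, 0.05 and 0.04. The median of all kept probe sets moved as well in that setting, from -0.01 to 0.05. Arrays without overlap were found for 6.65% of all genes in the higher direction and 7.59% in the lower direction.

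Of 15 other muscle ubiquitin ligase genes, 0 passed, 2 were without overlap in the lower direction, and the median was -0.03. These were Rbx1, the RING subunit of cullin ligases, and Mdm2, the ligase of p53. Rbx1 was close to the filter, with 6.0, 24.1 and 13.8 in the transgenic arrays, against 34.9, 33.2 and 41.3 in the wild type arrays. Its transgenic mean of 14.6 lay below the filter and its wild type mean of 36.5 above it. Rbx1 was thus kept only through its wild type values, and its lack of overlap rests on transgenic values mostly below the filter. The brightest probe set of Mdm2 gave a log2 difference of -0.28 and another one 0.12. Asb2, a substrate receptor of cullin ligases in muscle, gave 0.894-fold, with an adjusted p of 0.650 in limma and overlap. Of 10 FoxO factors and regulators, 0 passed, with a median of 0.05. The brightest probe set of the coactivator gene Ppargc1a gave a log2 difference of -0.26, and its 4 other probe sets ran from -0.41 to 0.21, the highest without overlap. The kinase gene Sgk1 gave 0.13, and Foxo4 gave 0.13 on its brightest and -0.26 on a dim probe set. Usp7, a deubiquitinase of FoxO factors, gave 0.09 and was named because its brightest probe set was the only one of the list without overlap.

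Of 22 FoxO-responsive genes 0 passed, 9 had positive and 13 negative differences, and the median was -0.02. Txnip, an inhibitor of thioredoxin, had the smallest p. It gave 3764, 3084 and 3492 in the transgenic arrays, against 4233, 4099 and 4650.2 in the wild type arrays. The genotypes did not overlap on either of its probe sets, with log2 differences of -0.33 and -0.37 and adjusted p of 0.235 and 0.178 in limma. Cdkn1a, the cell cycle inhibitor p21, gave a log2 difference of 0.26 and 0.671 as adjusted p in limma, and Sesn3, a stress-responsive sestrin, -0.36 and 0.696. Another kept probe set of each gene ran the other way, at -0.18 for Cdkn1a and 0.14 for Sesn3. The other gene without overlap, Ulk1, a kinase that starts autophagy, gave 0.11 in the higher direction and was named for that reason.

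The 12 other ligand and receptor genes of the myostatin and activin family had a median of -0.11, with no gene called and, on the brightest probe sets, none without overlap. Bmpr1a gave a log2 difference of 0.12 on its brightest probe set, and a dimmer probe set of it gave -0.39 without overlap. Tgfbr2 gave -0.14 and, on a dimmer probe set, 0.34. Acvr1b, the type I receptor of activin, gave 0.15 and, on a dim probe set, 0.13. Extracellular inhibitors and processing enzymes of myostatin, of which 7 of 11 were kept, had a median of -0.12. Dcn, the proteoglycan decorin, which binds myostatin, gave 6848, 6145 and 6742 in the transgenic arrays, against 8466, 7861 and 8176 in the wild type arrays. Its adjusted p was 0.0879 in limma, and a dim probe set of it gave a log2 difference of 0.45 in the other direction. Wfikkn2, a secreted myostatin antagonist, gave 50.9, 50.8 and 38.3 in the transgenic arrays, against 74.3, 67.1 and 62.2 in the wild type arrays. Wfikkn2 and the brightest probe set of Dcn did not overlap between genotypes, while the dim probe set of Dcn did. Fstl1, a follistatin-like protein, gave -0.12 with overlap.

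Of 15 genes of the Smads and their regulators 0 passed, and the median was -0.02. Smad3, which carries the signal of activin and myostatin receptors to the nucleus, gave 686, 646 and 701 in the transgenic arrays, against 849, 793 and 813 in the wild type arrays on its brightest probe set. That was a log2 difference of -0.27, at 0.361 as adjusted p in limma, and the other probe sets of Smad3 gave -0.06 and -0.04. The ligase gene Smurf1 gave -0.30 without overlap. The inhibitory Smad7 gave -0.25 on its brightest probe set and 0.02 on another kept one, both with overlap. Of 15 genes of the IGF axis 0 passed, and the median was -0.03. Igfbp5, an abundant muscle binding protein of insulin-like growth factors, gave 2126, 2330.5 and 2059.8 in the transgenic arrays, against 3037, 2584 and 2381 in the wild type arrays, with an adjusted p of 0.401 in limma. Igfbp3 gave a log2 difference of -0.31, and Igfbp2 0.48, with means of 64.8 in transgenic and 44.3 in wild type muscle, both with overlap. Ghr, the growth hormone receptor, named as the other gene of the list without overlap, gave -0.07.

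**Figure D5:**
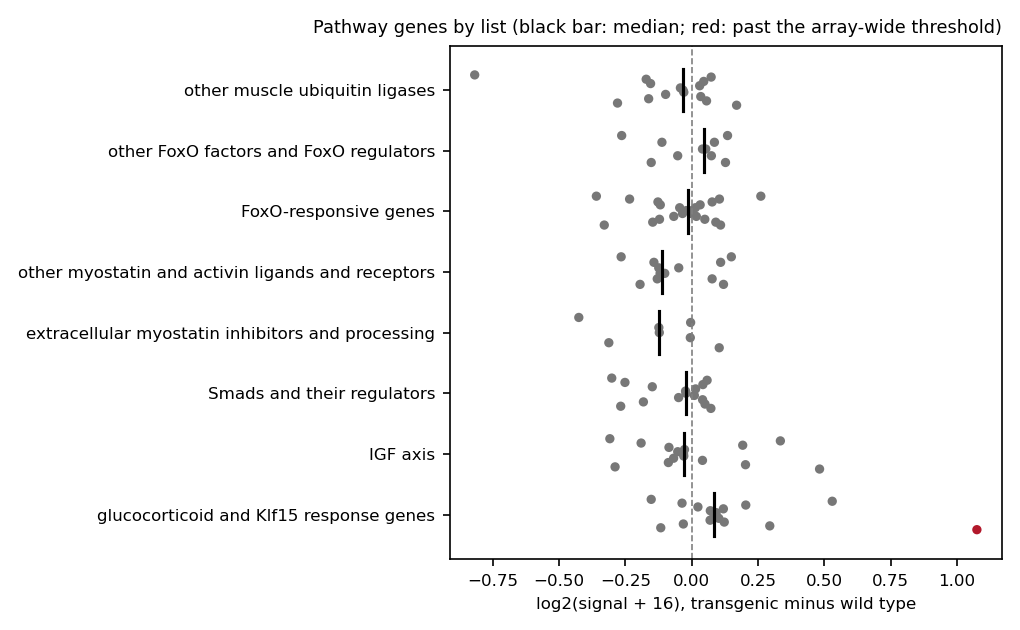
Difference of log2(signal + 16), transgenic minus wild type, of the brightest kept probe set of each gene in 8 pathway lists, with a point for each gene and a bar at the median of the list. The medians run from -0.12 to 0.08, and Bcat2, at 1.07, is the point past the array-wide threshold.

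The spread between pools was measured within each genotype. The median SD of log2(signal + 16) within a genotype was 0.14 in transgenic and 0.18 in wild type arrays over the 23 kept probe sets, against 0.17 and 0.16 over all kept probe sets. Transgenic array 3 was the lowest transgenic array on 13 of the 23, or 56.5%, where over all kept probe sets it was the lowest for 37.7%. Wild type array 3, of the same hybridisation round, was likewise the lowest wild type array on 11 of the 23, or 47.8%. Over all kept probe sets it was the lowest for 34.05%. Among the transgenic arrays, the range on the log2 scale was 0.08 for Fbxo32 1417522_at, 0.58 for Fbxo32 1448747_at and 0.42 for Trim63. Among the wild type arrays the ranges were 0.08, 0.20 and 0.10.

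The genes with profiles most like those of the ligases were found as the smallest root mean square difference of centred log2 values over the 6 arrays, among 12941 genes. To Fbxo32, by its brightest probe set, the nearest were Srms, AI506816, Vsnl1, Nrg2 and Rpgrip1, at 0.08 to 0.10 against a median of 0.39. Of these, Rpgrip1 gave 280, 284 and 161 in the transgenic arrays, against 355, 346 and 397 in the wild type arrays, while Srms, Vsnl1 and Nrg2 were dim. To Trim63 the nearest were Dpf3, Erlec1, Prr29, Cebpg and Nipbl, at 0.03 to 0.04 against a median of 0.23. All 10 had their lowest value of the 6 arrays in transgenic array 3, as Fbxo32 1448747_at and Trim63 did. They were picked for likeness over all 6 arrays, genotype difference included, so this shared low point is no separate result.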

How the data were processed

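RNA from calf muscle of transgenic and wild type mice was measured on 6 arrays. The deposited values are a linear signal intensity per probe set. Per the submitters' processing notes they were made with GCOS 1.1.1, by an algorithm that the labels do not name. As deposited, all 6 arrays had a trimmed mean of 150.0 (2% trimmed at either end) and medians of 34.0 to 38.4, and they were not normalised further. The deposited run files gave rounds and 4 fluidics modules, and no other content of them was used. Of 45101 rows, 64 controls were left out. Log2(signal + 16) was fitted by genotype with limma 3.58.1 in R 4.3.3 (intensity trend, two-sided, no covariates) on the 27022 probe sets above the 40th percentile of mean value, with Benjamini-Hochberg adjustment over all of them at 0.05. The fit was checked on simulated data. The scale understates changes of dim transcripts, and 3 arrays a genotype limit the precision; pools average the spread of single animals, so p-values measure the spread between pools.

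Names came from the platform annotation, updated through gene identifiers to RefSeq (GRCm38.p6); 34741 of 34945 probe sets with 1 symbol matched. Named were all probe sets of the described genes, and of each list the 3 genes with the smallest p, any gene called, and the 5 genes nearest by profile to Fbxo32 and to Trim63; genes named otherwise are marked. Members and lists were chosen with earlier results of these data known. Alternatives covered offsets, normalization, filters, variance models, blocks and left-out arrays. Figures were drawn with matplotlib 3.10.9.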

Additional observations from a re-analysis of the deposited data

How the results depend on the processing

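The number of probe sets called over the array, 33, became 51 with equal array medians, 297 with a random block for fluidics module (each module held 1 genotype, and the estimated correlation was -0.44), 17 with no filter and 1 without the intensity trend, and 18 to 39 when each array was left out in turn. It was 19 without wild type array 1 and 18 without wild type array 2. The 1 call among the genes described became 2 with the module block, and 0 with equal array medians, in round 1 alone, without the intensity trend and with the replicate block, where Fbxo32 1417522_at had an adjusted p of 0.0578 in limma. The deviations of same-numbered arrays from the means of their genotypes correlated at 0.00, 0.06 and 0.05. These values cannot decide whether the replicate numbers pair the arrays, and array 3 of both genotypes shared round 2. The count was 0 to 1 over the left-out arrays. Over 18 alternatives with a test that probe set was called in 9, with a log2 difference of -0.70 to -0.56, and the adjusted p in limma ran from 0.00310 to 0.378. The cause was not tested. The difference of Klf15 was negative in 3 of 19 alternatives. The 1 called pathway gene, Bcat2, became 3 calls with the module block and 0 in round 1 alone and without the intensity trend, and 0 to 1 over the left-out arrays, being 0 without wild type array 2 or 3. The direction of all 3 Fbxo32 probe sets and of both Fst probe sets was the same under every one of 19 alternatives. As the arrays do not overlap on any of them, left-out arrays, single rounds and other offsets could not change it. Filters, the intensity trend and fixed blocks leave the difference as it is. This sameness is therefore no support for the directions. The 5 genes nearest to Fbxo32 by profile shared 0, and those nearest to Trim63 shared 1, with the 5 found when profiles were centred within each genotype.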
